A study of Mus musculus with 2 samples.

Results

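The genes described here encode collagens and laminins. They were all genes whose symbol has the form of a mouse collagen alpha chain (Col, a type number, a and a chain number) or a laminin chain (Lama, Lamb or Lamc and a chain number), with at least 20 unique molecular identifiers (UMIs, each 1 captured transcript molecule) summed over both libraries. Of 32285 genes in the feature lists, 55 had such a symbol and 51 reached the minimum, 40 collagen chains and 11 laminin chains. The 4 below it were Col19a1 with 2 UMIs, Col24a1 with 9, Col6a6 with 7 and Col6a4 with 3.

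Single-cell RNA sequencing was made from the brains of NMOSD-like mice (mice modelling neuromyelitis optica spectrum disorder) of the C57BL strain, aged 8 to 13 weeks, labelled with a 24 h time point. There were 2 libraries, 1 of CD45-negative brain cells and 1 of CD45-positive cells, CD45 being the surface protein that marks leukocytes. There was no library of untreated or control mice, so levels are compared between cell classes and not between disease and health. The sources used here give neither the agent, nor the number of mice, nor whether mice were pooled. With 1 library per group no test between groups was possible. The 95% intervals below reflect counting error alone, and cells of 1 library are not replicates.

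Collagens are secreted proteins of 3 alpha chains wound into a triple helix. Laminins are cross-shaped trimers of an alpha, a beta and a gamma chain. Type IV collagen and laminin each build a sheet-like network, and together these form the basement membrane that surrounds brain capillaries, where it separates endothelial cells from the end-feet of astrocytes and encloses pericytes. Fibrillar collagens such as types I, III and V build the fibres of the interstitial matrix, which in the brain is found mainly in the meninges, around larger vessels and in the choroid plexus.

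Of the barcodes, 14524 with 92691820 UMIs came from the CD45-negative library and 8662 with 76182401 UMIs from the CD45-positive one. After filtering, 12817 cells with a median of 5412 UMIs and 8432 cells with a median of 6088.5 UMIs were kept, and 27 barcodes occurred in both libraries. Clusters made without the collagen and laminin genes gave 18 classes of at least 30 cells, named "-like" from marker lists that held no collagen or laminin. The 10 non-immune classes were read in the CD45-negative library and the 8 immune classes in the CD45-positive library. Levels are given in CPM, the usual scaling of the UMIs of a gene by all UMIs of the class. Because the assay reads transcripts near their 3′ end, the level of a gene is compared across classes and not with the level of another gene.

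Collagen and laminin transcripts came mainly from cells of the vessel wall and its surroundings. The 5 vascular and stromal classes, endothelial-like, pericyte-like, inflamed stromal, smooth muscle-like and fibroblast-like, made up 3066 cells, 23.9% of the kept CD45-negative cells, and held 60.8% of that library's collagen and laminin UMIs. The summed level of the 51 genes was highest in the 78 fibroblast-like cells at 6574 CPM (6343 to 6812), followed by 3725 CPM (3669 to 3781) in 1325 pericyte-like cells. It was 3170 CPM (3021 to 3325) in 125 inflamed stromal cells, 3039 CPM (2880 to 3205) in 110 smooth muscle-like cells and 2224 CPM (2188 to 2260) in 1428 endothelial-like cells. Inflamed stromal and smooth muscle-like cells overlapped in their intervals, and the other neighbours in this order did not. The remaining non-immune classes ranged from 1136 CPM in 45 ependymal-like cells, through 711 CPM in 224 choroid plexus epithelial-like cells and 525 CPM in 5215 astrocyte-like cells, to 164 CPM in 1207 neuroblast-like cells. Every immune class lay below them, between 22.8 CPM in dendritic-like cells and 99.0 CPM in neutrophil-like cells.

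**Figure D1:**
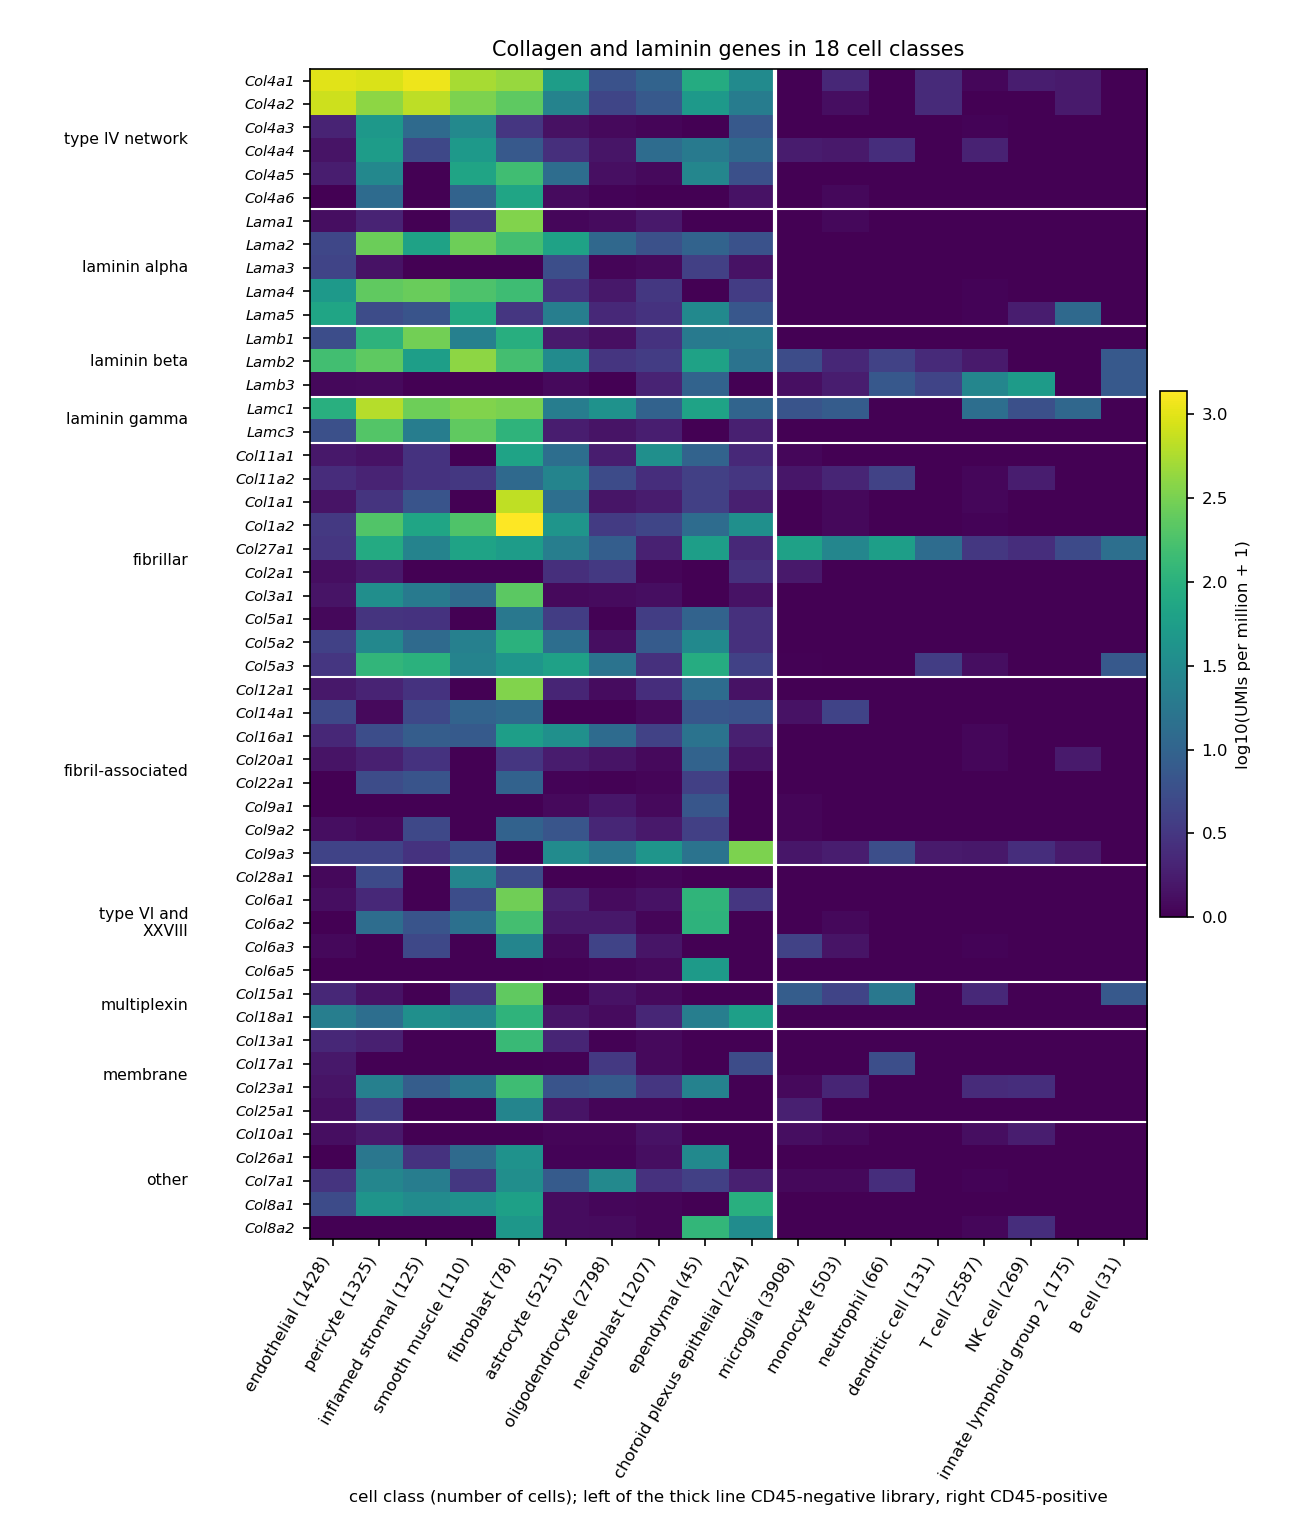
Level of 50 of the 51 collagen and laminin genes (rows) in each of the 18 cell classes (columns), as log10 of CPM plus 1. Fibroblast-like cells had the highest level of 24 genes, and the immune classes at the right were low for nearly all genes other than Col27a1, Col15a1, Lamc1 and Lamb3.

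By the class with the highest level, 38 of the 51 genes were led by one of these vascular and stromal classes. Fibroblast-like cells led 24, against 7% of all genes with at least 20 UMIs, and for 16 of these the interval of the ratio to the next class lay above 1. Pericyte-like cells led 5 (3.73% of all genes), smooth muscle-like cells 5 (7.09%), inflamed stromal cells 3 (4.37%) and endothelial-like cells 1 (5.28%). Ependymal-like cells led 5 (11.6% of all genes), choroid plexus epithelial-like cells 2 (6.79%), astrocyte-like cells 2 (9.69%) and oligodendrocyte-like cells 1 (6.92%). Of immune classes, NK-like cells led 2 (3% of all genes) and neutrophil-like cells 1 (4.18%). Neuroblast-like cells led none (12.3% of all genes), nor did microglia-like (4.77%), monocyte-like (1.53%), dendritic-like (2.72%), T-like (2.53%), group 2 innate lymphoid-like (2.58%) or B-like cells (3.92%). For 29 of the 51 genes the interval of the ratio to the next class lay above 1, and the leading class of the others was not resolved at this depth.

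Type IV collagen was the family with the most UMIs, 27147 over its 6 genes and all barcodes. Its chains assemble as trimers of the products of Col4a1 and Col4a2, of Col4a3, Col4a4 and Col4a5, or of Col4a5 and Col4a6. The 6 genes lie as 3 head-to-head pairs on the genome (GENCODE M21, build GRCm38). Col4a1 (chr8:11198423-11312826, minus strand) and Col4a2 (chr8:11312805-11449287, plus strand) have starts 21 bases apart and overlap there. Col4a3 (chr1:82586921-82722059, plus strand) and Col4a4 (chr1:82448423-82586849, minus strand) start 72 bases apart. Col4a5 (chrX:141475385-141689234, plus strand) and Col4a6 (chrX:141165403-141474076, minus strand) start 1309 bases apart. The stretches before these starts are shown because each pair had a profile of its own over the vascular classes. They are RefSeq windows of 250 bases before the start (GRCm38.p6), without bases that lie in an annotated exon, written 5′ to 3′ on the strand of the gene. Capitals mark the motifs searched on both strands, CCAAT, read as ATTGG on the other strand, GGGCGG, read there as CCGCCC, and TATAAA, read there as TTTATA. For Col4a4 at chr1:82586850-82586920 the 71 bases hold none of the motifs and also form the whole gap to the Col4a3 start. For Col4a5 at chrX:141475169-141475384 the 216 bases, which end 35 bases before the RefSeq start, hold 1 CCAAT, and for Col4a6 at chrX:141474077-141474326 the 250 bases hold 1 GGGCGG on the other strand.
Col4a4: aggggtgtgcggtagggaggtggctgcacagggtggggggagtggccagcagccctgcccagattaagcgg
Col4a5: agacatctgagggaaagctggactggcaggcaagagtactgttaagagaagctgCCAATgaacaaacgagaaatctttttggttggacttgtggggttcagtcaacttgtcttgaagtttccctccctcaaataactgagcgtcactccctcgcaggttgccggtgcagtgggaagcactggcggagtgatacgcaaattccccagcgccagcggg
Col4a6: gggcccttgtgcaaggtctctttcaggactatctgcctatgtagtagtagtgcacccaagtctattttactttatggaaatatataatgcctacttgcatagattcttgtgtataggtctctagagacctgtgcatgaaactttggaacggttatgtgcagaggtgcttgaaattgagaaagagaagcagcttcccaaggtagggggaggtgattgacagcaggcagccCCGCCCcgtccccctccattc
The windows of Col4a1 and Col4a2 lay wholly in annotated exons and are not shown. Among all 32851 windows of this length, 33.8% held CCAAT, 32.7% GGGCGG and 12.4% TATAAA. Among 40 windows of 36 collagen and laminin genes in the table these shares were 32.5%, 55% and 12.5%. A match is a description of the letters and not a binding site.

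Col4a1 and Col4a2, the chains of the ubiquitous type IV network, were shared by endothelial-like and mural cells. Col4a1 reached 1131 CPM (1043 to 1225) in inflamed stromal cells, 994 CPM (970 to 1018) in endothelial-like cells and 908 CPM (881 to 936) in pericyte-like cells. It was lower in smooth muscle-like cells at 527 CPM (462 to 599) and in fibroblast-like cells at 456 CPM (396 to 522), whose intervals overlapped. In inflamed stromal cells 58 of the 604 Col4a1 UMIs came from 1 cell, and without that cell the level was 1056 CPM. A Col4a1 UMI was found in 78.4% of endothelial-like and 78.8% of pericyte-like cells, and in 49.8% and 51.8% after thinning each cell to 1000 UMIs. The background share in oligodendrocyte-like cells was 4.32% before and 0.764% after thinning, at a median of 8971.5 UMIs against 4454.5 in endothelial-like and 3311 in pericyte-like cells. Col4a2 was highest in endothelial-like cells at 789 CPM (768 to 811), followed by 674 CPM in inflamed stromal cells, 406 CPM in pericyte-like cells, 326 CPM in smooth muscle-like cells and 229 CPM in fibroblast-like cells. The proportion of the 2 genes differed between classes. Col4a1 had 1.26 UMIs per Col4a2 UMI (1.21 to 1.31) in endothelial-like cells and 2.24 (2.12 to 2.37) in pericyte-like cells, a ratio 1.78 times as high (1.67 to 1.90). After thinning these were 1.20 and 2.47. Astrocyte-like cells had 2.24 (2.05 to 2.45), fibroblast-like cells 1.99, inflamed stromal cells 1.68 and smooth muscle-like cells 1.62. Within a class the chains were found together. In endothelial-like cells a Col4a2 UMI was seen in 82.5% of cells with a Col4a1 UMI and in 38.8% of cells without one. In pericyte-like cells these shares were 63.8% and 26.3%, and deeper cells have more of any UMI in both classes.

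Astrocyte-like cells had a low level of Col4a1 that stood above that of oligodendrocyte-like cells. It was 54.6 CPM (51.9 to 57.4), and a UMI was found in 19.7% of cells, against 5.23 CPM (4.39 to 6.18) in oligodendrocyte-like cells. The 10 endothelial marker genes summed to 73.7 CPM in astrocyte-like cells and 57.4 CPM in oligodendrocyte-like cells, and the 10 pericyte marker genes to 247.6 and 82.6 CPM. Their part in the astrocyte level of Col4a1 was not tested.

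The other 4 type IV genes were low in endothelial-like cells. Col4a3 and Col4a4, chains of a network known from kidney and inner ear, were led by pericyte-like cells at 46.0 and 52.9 CPM, with smooth muscle-like cells at 29.1 and 49.2 CPM, not resolved from them. Endothelial-like cells had 1.08 CPM of Col4a3 (7 UMIs) and 0.461 CPM of Col4a4 (3 UMIs), 42.8-fold (20.4 to 108) and 115-fold (38.8 to 561) below pericyte-like cells. In neuroblast-like cells Col4a4 was 12.02 CPM (9.92 to 14.4), where Col4a3 had 1 UMI. Col4a5 and Col4a6 were led by fibroblast-like cells, at 151 CPM (118 to 191) and 69.1 CPM (47.3 to 97.6). Col4a5 was 67.0 CPM in smooth muscle-like and 28.1 CPM in pericyte-like cells, and Col4a6 was 8.94 and 11.5 CPM there. In endothelial-like cells Col4a5 had 5 UMIs and Col4a6 none, at least 24.8-fold below pericyte-like cells with a floor of 3 UMIs over the class. In inflamed stromal cells neither had a UMI. With the same floor, Col4a5 was at least 5.00-fold and Col4a6 at least 2.04-fold lower there than in pericyte-like cells.

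**Figure D2:**
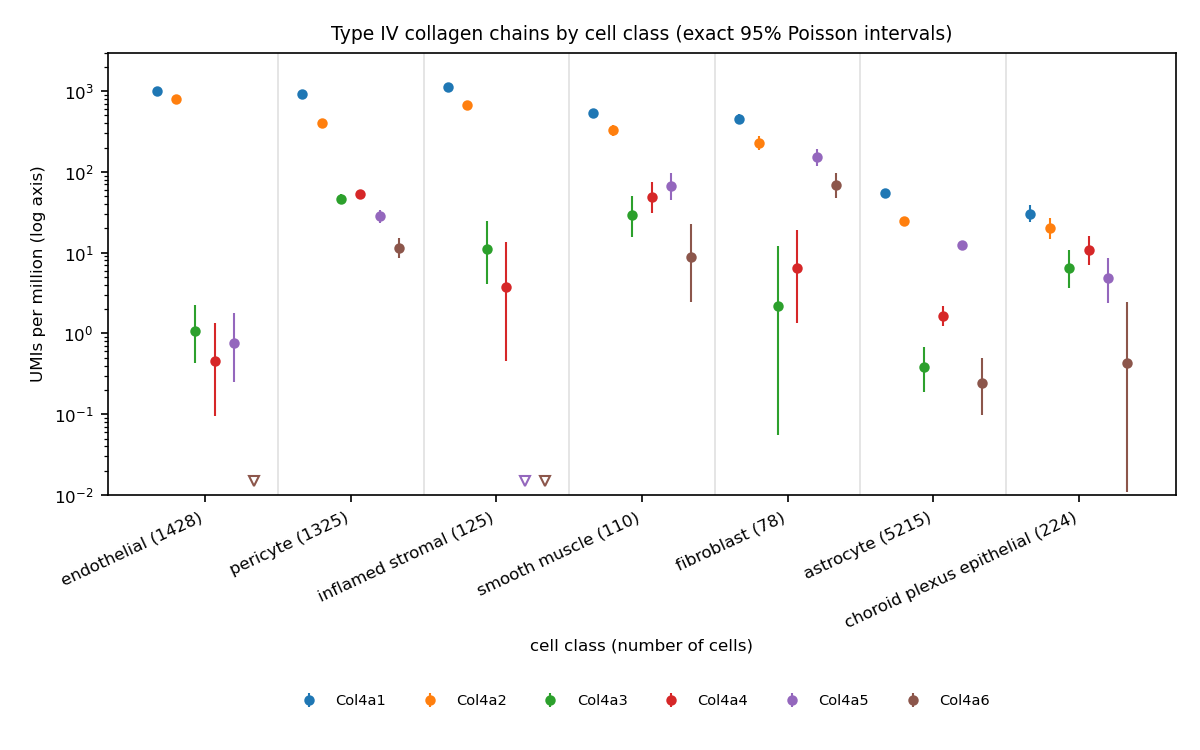
CPM on a log axis of the 6 type IV collagen genes in the vascular and stromal, astrocyte-like and choroid plexus epithelial-like classes, each point with its 95% counting interval, and triangles at the bottom for 0 UMIs. Col4a1 and Col4a2 were highest in endothelial-like and inflamed stromal cells, Col4a3 and Col4a4 in pericyte-like and smooth muscle-like cells, and Col4a5 and Col4a6 in fibroblast-like cells.

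Type IV collagen made up a larger share of the collagen and laminin UMIs in endothelial-like cells, at 80.3%, than in other vascular classes. The share was 39.0% in pericyte-like and 13.9% in fibroblast-like cells. Within the endothelial-like class, the level of type IV genes differed between subclusters, which had been made without the collagen and laminin genes. Col4a1 was 490 CPM in 617 capillary cells, 543 CPM in 139 arterial cells and 822 CPM in 65 venous cells, zones named from marker lists. It was 1614 CPM (1557 to 1673) in 328 cells led by Igfbp6, Ch25h and Apln, and 1420 CPM (1349 to 1494) in 239 cells led by Gpr182, Pgf, Kit and Angpt2. Col4a2 ran in parallel, at 370 CPM in capillary, 442 CPM in arterial, 633 CPM in venous cells, and 1294 and 1153 CPM in the last 2 subclusters. The venous level was 1.68-fold (1.47 to 1.91) the capillary level for Col4a1 and 1.71-fold (1.47 to 1.99) for Col4a2. The leading genes of the venous cells included Ackr1, Selp, Vcam1 and Il1r1, which are in the venous marker list, and Csf3, Sele and Cd14, which are not. Whether their differences from capillary cells go with the venous zone or with another state of these cells was not tested. Median UMIs per cell were 3494 in capillary, 5701 in arterial and 5691 in venous cells. Venous and capillary cells could be compared for 6 collagen and laminin genes. None was at least 2-fold higher in venous cells (5.72% of all genes), and 1, Lama5, was at least 2-fold lower (12.2% of all genes), at 35.6 against 80.2 CPM, a ratio of 0.444 (0.232 to 0.780).

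Arterial cells differed from capillary cells in Col18a1, whose product carries heparan sulfate and releases endostatin. Col18a1 was 79.9 CPM (61.1 to 103) in arterial cells and 5.10 CPM (11 UMIs) in capillary cells, a 15.7-fold difference (8.17 to 33.0), with 61 UMIs in 31 of 139 arterial cells. Of 10 genes compared, 3 were at least 2-fold higher in arterial cells (4.19% of all genes), and the other two were Col14a1, at 23.6 against 3.25 CPM (7.27-fold, 2.90 to 20.6), and Col8a1. Col8a1, a short network-forming chain, had 24 UMIs in 11 arterial cells and none in capillary cells, at least 22.6-fold higher. One gene was at least 2-fold lower (5.87% of all genes), Lama4 at 22.3 against 45.4 CPM, a ratio of 0.490 (0.275 to 0.826). Venous cells had no Col18a1 UMI. Of the 24 Col8a1 UMIs 8 were in 1 cell. The 10 fibroblast marker genes summed to 4724 CPM in arterial and 95.05 CPM in capillary cells, with 6 of 10 at 0 in arterial cells, and that list holds Mgp, a leading gene of the arterial cells. The 10 smooth muscle marker genes summed to 81.3 CPM in arterial and 24.6 CPM in capillary cells, with 4 of 10 at 0 in arterial cells. The part of these other cell types in the differences was not tested.

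**Figure D3:**
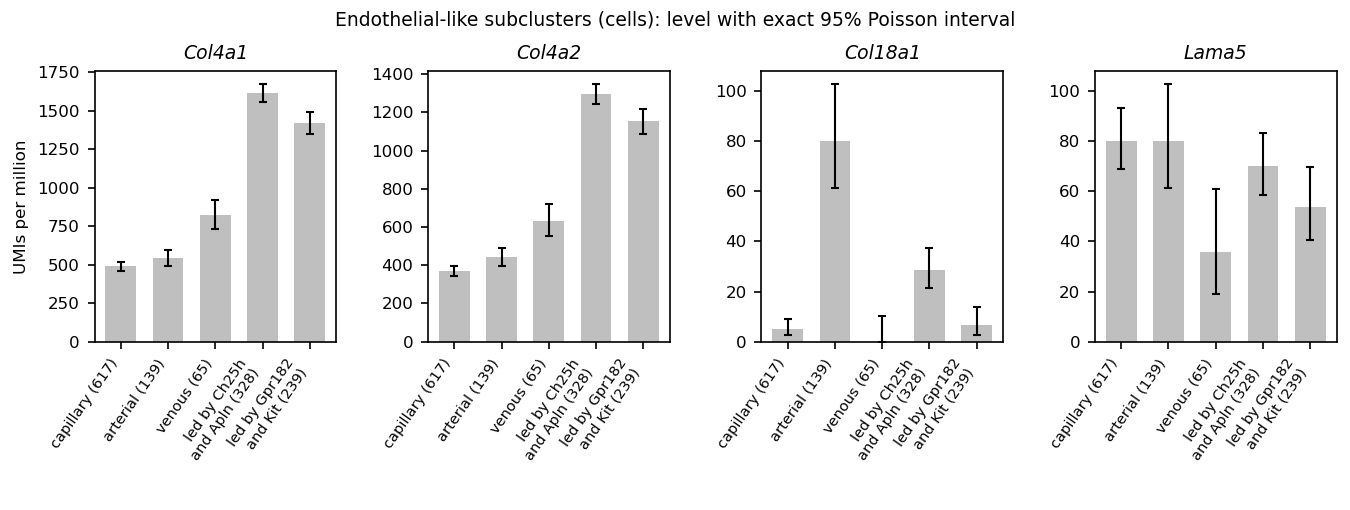
CPM of Col4a1, Col4a2, Col18a1 and Lama5 in 5 endothelial-like subclusters, as bars from 0 with 95% counting intervals. Col4a1 and Col4a2 were highest in the subclusters led by Ch25h and Apln and by Gpr182 and Kit, and Col18a1 was highest in arterial cells at 79.9 CPM.

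Pericyte-like cells differed from endothelial-like cells in most of the genes that could be compared. Of 30 genes with at least 20 UMIs over both classes, 22 were at least 2-fold higher in pericyte-like cells, 73.3% against 17.4% of all genes, and 3 were at least 2-fold lower, 10% against 15.6%. The median log2 ratio was 4.66 for the 30 genes and 0.07 for all genes compared. The 3 lower genes were Lama5, Lama3 and Col14a1. Among those higher were Col1a2, at 191 against 2.30 CPM, Lama2, at 271 against 3.69 CPM, Col5a3, at 117 against 2.15 CPM, and Col3a1, at 35.0 CPM against 3 UMIs. Col6a2, Col26a1 and Col22a1 had no UMI in endothelial-like cells and were at least 26.2-fold, 35.6-fold and 9.37-fold higher in pericyte-like cells. The 5 genes that differed by less than 2-fold were Col4a1, Col4a2, Col9a3, Col18a1 and Lamb2.

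Endothelial-like and pericyte-like cells differed in their laminin alpha chain genes, and smooth muscle-like cells were high in both Lama5 and Lama2. Each laminin trimer takes 1 alpha chain, which carries the cell-binding end of the molecule. Lama5, an alpha chain of vascular laminins, was highest in smooth muscle-like cells at 80.5 CPM (56.3 to 111) and endothelial-like cells at 69.5 CPM (63.2 to 76.2), intervals that overlapped. It was 20.9 CPM (19.3 to 22.7) in astrocyte-like cells, 4.32 CPM (2.64 to 6.67) in pericyte-like cells and 1 UMI in fibroblast-like cells. Lama2, the alpha chain of muscle laminin, whose loss causes a congenital muscular dystrophy, had another order. It was 279 CPM (233 to 333) in smooth muscle-like cells and 271 CPM (256 to 286) in pericyte-like cells, 158 CPM in fibroblast-like cells, 63.7 CPM in inflamed stromal cells, 62.7 CPM (59.9 to 65.7) in astrocyte-like cells and 3.69 CPM in endothelial-like cells. A Lama2 UMI was found in 26.2% of astrocyte-like cells (6.68% after thinning) and 1.61% of endothelial-like cells (0.157%). Lama4, an alpha chain of vascular laminin, was 260 CPM (219 to 307) in inflamed stromal cells, 235 CPM (222 to 250) in pericyte-like cells, 181 CPM in smooth muscle-like cells, 145 CPM in fibroblast-like cells and 49.2 CPM in endothelial-like cells. Lama1, the alpha chain of the laminin of early embryos, was led by fibroblast-like cells, at 350 CPM (298 to 408) from 162 UMIs. The next class, smooth muscle-like, had 1 Lama1 UMI and pericyte-like cells 5. Lama3, an epithelial alpha chain, was low in every class, with 4.66 CPM (3.91 to 5.52) in astrocyte-like and 3.38 CPM (2.12 to 5.12) in endothelial-like cells.

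Lama5 is printed with the stretch before its start because its level differed between vascular classes, between venous and capillary cells and, as given later, among astrocyte-like clusters. The 250 bases before the start at chr2:180225860-180226109 (minus strand) hold 4 GGGCGG motifs counting both strands.
Lama5: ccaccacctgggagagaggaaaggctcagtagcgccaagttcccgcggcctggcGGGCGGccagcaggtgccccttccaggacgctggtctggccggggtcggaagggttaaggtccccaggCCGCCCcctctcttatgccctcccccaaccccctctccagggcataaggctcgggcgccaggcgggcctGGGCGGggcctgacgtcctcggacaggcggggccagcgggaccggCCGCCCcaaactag
The gene itself lies at chr2:180176373-180225859. The 250-base windows of Lama1, Lama3, Lama4 and Lamc1 are not shown.

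Of the gamma chains, Lamc1, common to most laminins, was led by pericyte-like cells at 613 CPM (591 to 636) and found in 74.1% of them. It was 351 CPM in smooth muscle-like, 320 CPM in fibroblast-like, 281 CPM in inflamed stromal and 94.8 CPM (87.5 to 103) in endothelial-like cells. Lamc3, a gamma chain known from the pial and retinal basement membranes, was 237 CPM (194 to 287) in smooth muscle-like and 199 CPM (186 to 212) in pericyte-like cells, 108 CPM in fibroblast-like cells and 4.92 CPM in endothelial-like cells. Of the beta chains, Lamb2 was 407 CPM (350 to 470) in smooth muscle-like cells, 227 CPM in pericyte-like, 158 CPM in fibroblast-like, 153 CPM in endothelial-like and 56.2 CPM in inflamed stromal cells. Lamb1 was led by inflamed stromal cells at 296 CPM (252 to 346), with 106 CPM in pericyte-like, 92.9 CPM in fibroblast-like, 22.3 CPM in smooth muscle-like and 4.46 CPM in endothelial-like cells. Relative to Lamc1 the chains differed between classes. Lama5 had 0.733 UMIs per Lamc1 UMI in endothelial-like and 0.00704 in pericyte-like cells, a 104-fold difference (65.8 to 173). Lamb1 had 1.05 UMIs per Lamc1 UMI (0.837 to 1.33) in inflamed stromal cells and 0.173 (0.157 to 0.191) in pericyte-like cells.

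**Figure D4:**
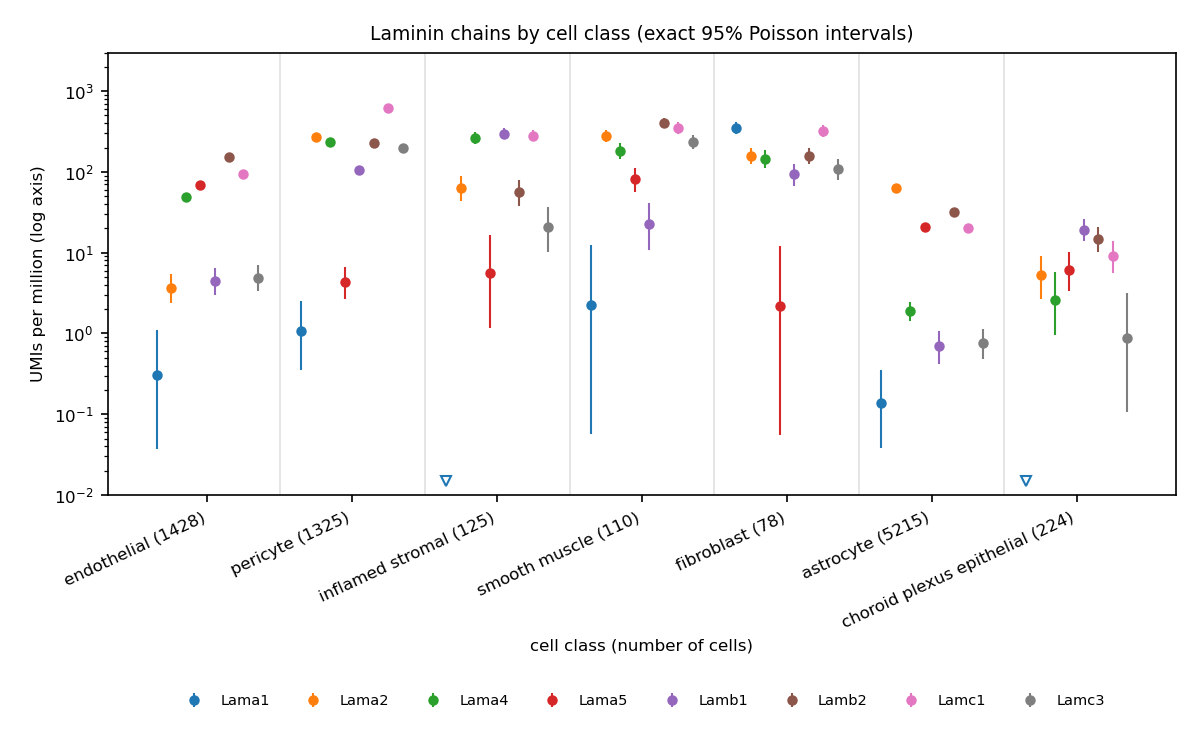
CPM on a log axis of 8 laminin chain genes in the vascular and stromal, astrocyte-like and choroid plexus epithelial-like classes, with 95% counting intervals and triangles at the bottom for 0 UMIs. Lama5 was high in endothelial-like and smooth muscle-like cells and low in pericyte-like cells, Lama2 showed the opposite for endothelial-like and pericyte-like cells, and Lama1 was high in fibroblast-like cells.

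Smooth muscle-like and pericyte-like cells differed by at least 2-fold in 9 of the 27 genes compared. In smooth muscle-like cells 4 were higher, 14.8% against 5.79% of all genes, and 5 lower, 18.5% against 11.7%. The higher genes were Lama5 (18.6-fold, 10.5 to 33.9), Col28a1 (6.53-fold, 2.89 to 14.2), Col4a5 (2.39-fold, 1.55 to 3.57) and Col18a1 (2.10-fold, 1.03 to 3.96). Col28a1, a von Willebrand factor A domain collagen, was led by smooth muscle-like cells at 26.8 CPM from 12 UMIs. The lower genes were Col7a1, with 1 UMI against 123, Col5a3, Lamb1 and Col3a1, with ratios of 0.210, 0.210 and 0.319, and Col22a1, with none against 20 UMIs, where the upper limit of 8.24 CPM for 0 UMIs lay above the pericyte-like level of 4.32 CPM. The 10 pericyte marker genes summed to 19660 CPM in smooth muscle-like cells, more than their own 10 marker genes at 9308 CPM, and to 29744 CPM in pericyte-like cells. Pericyte-like cells themselves led Lamc1, Col5a3, Col27a1, Col4a4 and Col4a3. Col5a3, a fibrillar chain of type V collagen, was 117 CPM (107 to 127) in them and 99.2 CPM in inflamed stromal cells, with overlapping intervals. Col27a1, a fibrillar collagen of cartilage and other tissues, was 81.5 CPM (73.4 to 90.1) in pericyte-like and 64.8 CPM in smooth muscle-like cells.

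Fibroblast-like cells had the highest level of 6 of the 10 fibrillar collagen genes. The fibrillar genes summed to 2590 CPM in them, 458 CPM in pericyte-like and 194 CPM in astrocyte-like cells. Of the other fibrillar genes, Col5a3 and Col27a1 were led by pericyte-like, Col11a2 by astrocyte-like and Col2a1 by oligodendrocyte-like cells. None of these leads was resolved from the next class. Of 36 genes compared with pericyte-like cells, 19 were at least 2-fold higher, 52.8% against 12.7% of all genes, and 4 at least 2-fold lower, 11.1% against 15.4%. The median log2 ratio was 1.54 for these genes and -0.04 for all genes. Col1a2, the alpha 2 chain of type I collagen, was 1378 CPM (1273 to 1490) with a UMI in 91.0% of the 78 cells, 63.5% after thinning. The background share, in endothelial-like cells, was 0.910% and 0.157%. Pericyte-like cells had 191 CPM (178 to 204) of Col1a2, smooth muscle-like cells 185 CPM and inflamed stromal cells 69.3 CPM. Col1a1, the alpha 1 chain of the same trimer, was 698 CPM (624 to 778) in fibroblast-like cells, but 29.1% of its UMIs there came from 1 cell. Pericyte-like cells had 9 Col1a1 UMIs, 1.94 CPM, so the proportion of the pair differed between the classes. Col1a1 had 0.506 UMIs per Col1a2 UMI in fibroblast-like cells and 0.0102 in pericyte-like cells, a 49.6-fold difference (25.5 to 110). Col3a1, the type III chain, was 225 CPM (184 to 272) in fibroblast-like and 35.0 CPM (29.8 to 40.8) in pericyte-like cells.

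The other genes led by fibroblast-like cells spanned most collagen families. Of those that associate with fibrils or microfibrils, Col12a1 reached 352 CPM (300 to 411), with 1.87 CPM in inflamed stromal cells, and Col6a1 and Col6a2, chains of beaded-filament type VI collagen, 283 CPM (237 to 336) and 158 CPM (124 to 198). Col15a1, a basement membrane collagen of the same family as Col18a1, was 233 CPM (191 to 282) with 2 UMIs in pericyte-like cells. Col18a1 was 110 CPM (82.0 to 145) and Col5a2, a type V chain, 99.4 CPM (72.8 to 133). The membrane-spanning collagens Col23a1 and Col13a1 were 147 CPM (114 to 186) and 132 CPM (101 to 169), with 22.5 and 0.864 CPM in pericyte-like cells. Fibroblast-like cells also led Col11a1 at 64.8 CPM, Col16a1 at 56.2 CPM, Col26a1 at 38.9 CPM, Col7a1 at 34.6 CPM, Col6a3 at 25.9 CPM and Col25a1 at 25.9 CPM. Leads not resolved from the next class were those of Col16a1, Col26a1, Col7a1 and Col6a2, and the low ones of Col5a1 at 17.3 CPM, Col14a1 at 10.8 CPM with 4 of its 5 UMIs in 1 cell, Col22a1 at 8.64 CPM and Col9a2 at 8.64 CPM. The 4 genes lower than in pericyte-like cells were Col4a3, Col4a4, Col5a3 and, from 1 UMI with an interval that included equal levels, Lama5. The 10 astrocyte marker genes summed to 3169 CPM in fibroblast-like and 1267 CPM in pericyte-like cells, and their part in these levels was not tested.

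The fibroblast-like class was made of 2 clusters with different collagens. A cluster of 62 cells, with Dcn, Lum and Slc6a13, held all UMIs of Lama1 (470 CPM), Col15a1 (313 CPM), Col13a1 (177 CPM) and Col4a5 (203 CPM). A cluster of 16 cells, led by Slc47a1, Ccn3 and Prg4, had none of these and more Col6a1, at 659 CPM (521 to 823) against 154 CPM (115 to 201). It also had 220 CPM of Col8a1 and 144 CPM of Col8a2. All 12 Col25a1 UMIs of the class were in this smaller cluster. Col1a2 was 1396 CPM in the larger and 1327 CPM in the smaller cluster, with overlapping intervals. Against pericyte-like cells the larger cluster alone kept 21 of the 23 differences of at least 2-fold given above. There the direction of Col25a1 turned, with no UMI, which allows up to 10.7 CPM, against 2.81 CPM in pericyte-like cells, and the log2 ratio of Lama5 was -0.57, a difference under 2-fold.

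Inflamed stromal cells were a pair of clusters of 69 and 56 cells. They were led by Tnc and by cytokine genes such as Il6 and Cxcl5, and 1 of the clusters had a median of only 900 UMIs. The 10 pericyte marker genes summed to 6857 CPM in them and the 10 fibroblast markers to 4121 CPM, against 29744 and 4315 CPM in pericyte-like cells. Markers of other classes were also higher in them than in pericyte-like cells, with sums of 2425 against 1260 CPM for oligodendrocyte, 1841 against 1267 CPM for astrocyte, 429 against 99.8 CPM for neuroblast and 148 against 22.04 CPM for monocyte markers, and 7 of the 10 monocyte markers were at 0. Their part in the differences was not tested. Of 26 genes compared with pericyte-like cells, 14 were at least 2-fold lower, 53.8% against 19.1% of all genes, and 2 at least 2-fold higher, 7.69% against 11.4%. Lamb1 was 2.78-fold higher (2.31 to 3.34), with a UMI in 52.0% against 26.1% of cells, and Col18a1 2.79-fold (1.57 to 4.75), at 35.6 against 12.7 CPM. Col4a2 was 1.66-fold (1.48 to 1.86) and Col4a1 1.25-fold (1.14 to 1.36) the pericyte-like level. Without 1 cell that held 58 Col4a1 UMIs, the Col4a1 ratio was 1.16 (1.06 to 1.27). The lower genes included Col4a4, with 2 UMIs, Lamc3 at 20.6 against 199 CPM, Lama2 at 63.7 against 271 CPM, Lamb2 at 56.2 against 227 CPM, Col27a1 at 24.3 against 81.5 CPM, Col1a2 at 69.3 against 191 CPM and Lamc1 at 281 against 613 CPM. Lama4 and Col5a3 were near the pericyte-like level, with ratios of 1.11 (0.9203 to 1.32) and 0.847 (0.627 to 1.12). Without the cluster of low UMI counts the log2 ratios of Lamb1 and Col18a1 were 1.55 and 1.24. All 16 differences of at least 2-fold kept their direction and stayed at least 2-fold. Among pericyte-like clusters, one of 198 cells with Saa3 and interferon-induced genes had 1252 CPM of Col4a1, against 843 CPM in a cluster of 540 cells.

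Astrocyte-like cells differed in collagen and laminin genes between clusters, within as well as between states. A set of 562 cells in 2 clusters, led by reactive genes such as Ptx3 and Tgm1, was compared with the other 4653 astrocyte-like cells. Of 30 genes, 6 were at least 2-fold higher in reactive cells, 20% against 8.44% of all genes, and 9 at least 2-fold lower, 30% against 13.6%. Col5a3 was 198 CPM (182 to 214) against 45.5 CPM, a 4.34-fold difference (3.94 to 4.79), and was found in 35.6% against 15.6% of cells. Lama5 was 66.5 CPM against 15.4 CPM, a 4.33-fold difference (3.65 to 5.13), and was found in 22.6% against 7.31% of cells. Both genes were high in only 1 of the 2 reactive clusters, as given below. Lamc1 was 38.6 against 18.03 CPM (2.14-fold, 1.74 to 2.62) and Col4a1 79.1 against 51.6 CPM (1.53-fold, 1.33 to 1.76). Col2a1, the cartilage type II collagen, was 14.4-fold higher, but 22 of its 30 UMIs in reactive cells came from 1 cell, and without that cell the ratio was 3.86 (1.44 to 9.43). The other two higher genes, Col6a1 and Col12a1, had 7 UMIs each in reactive cells and intervals that included equal levels. Median UMIs per cell were 4536 in reactive and 5300 in other cells. The 10 endothelial and 10 pericyte marker genes summed to 78.2 and 207 CPM in reactive and 73.2 and 253 CPM in other astrocyte-like cells, and the 10 monocyte markers to 102 and 32.5 CPM, with 2 of 10 at 0 in reactive cells. Their part was not tested.

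The genes lower in reactive astrocyte-like cells included both chains of type I collagen. Col1a2 was 17.4 against 45.7 CPM, a ratio of 0.381 (0.285 to 0.499), and Col1a1 3.17 against 14.1 CPM, a ratio of 0.224 (0.107 to 0.417). Lama2 was 30.4 against 66.7 CPM, a ratio of 0.456 (0.367 to 0.560). Col5a2, Col11a2 and Col9a3 had ratios of 0.373, 0.483 and 0.491, and Lama3 and Col9a2, from 4 and 6 UMIs in reactive cells, 0.249 and 0.308. Lamb1, with 1 UMI, was the ninth. Against only the 4 other clusters led by Gm37107, chosen after seeing the data, the log2 ratio of Lama5 was 1.53 in place of 2.11 and that of Col5a3 1.84 in place of 2.12. There Col9a2 and Lamb1 were higher in reactive cells, with log2 ratios of 0.62 and 0.038. The 2 reactive clusters differed from each other. Col5a3 was 239 CPM (220 to 259) and Lama5 81.7 CPM (71.0 to 93.6) in 371 cells led by Ptx3, but 26.1 and 3.26 CPM in 191 cells led by Tgm1. A cluster of 206 cells outside the reactive set, led by Gm4710 and Neat1, also had 225 CPM (196 to 256) of Col5a3 and 75.9 CPM (59.8 to 95.1) of Lama5. Gm37107 was also among its leading genes, so it was 1 of the 4 clusters in that comparison. Across all astrocyte-like cells Col11a2, a minor fibrillar chain, was 24.7 CPM (22.95 to 26.6), the highest of any class. This lead was not resolved from fibroblast-like cells, with a ratio of 2.29 (0.976 to 7.07). Col16a1 was 37.0 CPM (34.8 to 39.2), with an interval that met that of fibroblast-like cells. Because Col5a3 and Lama5 were high in the same astrocyte-like clusters, the 250 bases before the Col5a3 start at chr9:20815068-20815317 (minus strand) are shown beside those of Lama5 above. They hold 1 CCAAT and, on the other strand, 2 GGGCGG.
Col5a3: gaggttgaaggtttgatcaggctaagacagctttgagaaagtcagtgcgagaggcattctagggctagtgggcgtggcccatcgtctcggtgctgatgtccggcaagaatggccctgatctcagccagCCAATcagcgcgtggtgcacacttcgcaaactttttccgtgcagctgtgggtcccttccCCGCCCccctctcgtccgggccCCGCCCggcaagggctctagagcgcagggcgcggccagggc

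Among oligodendrocyte-like cells, Col7a1, the anchoring fibril collagen of skin, marked 1 cluster. This cluster of 683 cells was led by stress genes such as Srxn1, Btc and Cgref1, with a median of 12006 UMIs per cell against 8361 in the other 2115 cells. Col7a1 was 84.1 CPM (78.0 to 90.5) in it and 3.16 CPM in the others, a 26.6-fold difference (20.3 to 35.4). A UMI was found in 265 of 683 cells (38.8%) and in 48 of 2115 (2.27%), with at most 15 in a cell. Of 19 genes compared, 5 were at least 2-fold higher in the stress cluster, 26.3% against 12.1% of all genes, and 3 at least 2-fold lower, 15.8% against 10.6%. Col17a1, a membrane-spanning collagen of epithelial hemidesmosomes, was 6.21 against 0.4997 CPM (12.4-fold, 6.07 to 28.7), and Col27a1 15.3 against 4.22 CPM (3.62-fold, 2.71 to 4.88). Lama5 and Col2a1, at 18 and 30 UMIs in the stress cluster, were 2.42-fold (1.16 to 5.07) and 2.02-fold (1.18 to 3.43) higher. Of the 30 Col2a1 UMIs 6 were in 1 cell. Without that cell the Col2a1 ratio was 1.62 (0.911 to 2.83), under 2-fold and with an interval that included equal levels. Lama2 was lower, at 2.15 against 14.5 CPM, a ratio of 0.148 (0.0865 to 0.239), as were Col11a2 and Col9a3, with ratios of 0.473 and 0.483. Lamc1 was 56.2 against 30.5 CPM (1.85-fold, 1.63 to 2.09). The 10 oligodendrocyte marker genes summed to 15650 CPM in the stress cluster and 37776 CPM in the others, which included 662 cells led by Gpr17 and Bmp4. The 8 border macrophage marker genes found summed to 106 and 6.33 CPM, with 3 of them at 0 in the stress cluster. The 8 group 2 innate lymphoid marker genes summed to 271 and 61.8 CPM, with 5 at 0 there. The part of other cell types was not tested. Col2a1 and Col17a1 were rare overall. Col2a1 was led by oligodendrocyte-like cells at 2.35 CPM, and Col17a1 by neutrophil-like cells at 4.72 CPM from 3 UMIs. Neither lead was resolved from the next class. The 250 bases before the Col7a1 start at chr9:108953336-108953585 (plus strand) are printed because this gene had the largest ratio between states of those with at least 100 UMIs. They hold 1 CCAAT on the other strand and 1 GGGCGG.
Col7a1: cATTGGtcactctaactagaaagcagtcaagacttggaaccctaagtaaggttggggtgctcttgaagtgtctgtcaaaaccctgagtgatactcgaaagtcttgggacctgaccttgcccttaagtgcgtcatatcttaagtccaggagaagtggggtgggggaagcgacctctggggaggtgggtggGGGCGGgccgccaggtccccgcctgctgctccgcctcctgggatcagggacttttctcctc

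The epithelial classes led a few collagen genes, no more than their share of all genes. Choroid plexus epithelial-like cells led 2 of the 51 genes (6.79% of all genes), and ependymal-like cells led 5 (11.6% of all genes). Of these, Col8a1 and Col8a2 were also high in the smaller fibroblast-like cluster, as given above. Choroid plexus epithelial-like cells led Col9a3, a fibril-associated chain, at 327 CPM (304 to 351), with a UMI in 75.9% of cells and 42.1 CPM in the next class, neuroblast-like cells. They also led Col8a1 at 94.98 CPM (82.8 to 108), against 60.5 CPM (40.2 to 87.4) in fibroblast-like cells. Col18a1 was 58.4 CPM (48.9 to 69.1) in this class, and 87 of its 134 UMIs fell in a cluster of 32 cells, at 246 CPM. Ependymal-like cells led Col8a2 at 119 CPM (85.2 to 162) from 40 UMIs. They had Col6a1 and Col6a2 at 113 and 107 CPM, against 283 and 158 CPM in fibroblast-like cells. Of 23 Col6a5 UMIs 17 were in 5 of the 45 ependymal-like cells, at 50.7 CPM (29.5 to 81.1), and 7 of these were in 1 cell. The other 6 UMIs were in oligodendrocyte-like, neuroblast-like and astrocyte-like cells. With stricter cell filters the ependymal-like cells fell under the minimum of 30 cells for a class, and neuroblast-like cells led Col6a5. Col20a1 and Col9a1 were led by ependymal-like cells from 3 and 2 UMIs. Neuroblast-like cells had Col9a3 at 42.1 CPM and Col11a1, a minor fibrillar chain, at 36.1 CPM (32.3 to 40.1). Col11a1 was highest, at 150 CPM (108 to 203), in a cluster of 161 neuroblast-like cells with a median of 1444 UMIs.

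The CD45-positive cells had few of these transcripts. The gate chose the cells, so the side of a gene is a description. The median log2 ratio of the CD45-positive to the CD45-negative library was -6.03 over the 51 genes and -0.58 over 18379 genes, and 45 of the 51 were at least 2-fold higher in the CD45-negative library, against 40.9% of all genes. At least 2-fold higher in the CD45-positive library were 3 genes, against 16.5% of all genes. Col27a1 was 44.0 CPM among CD45-positive and 16.6 CPM among CD45-negative cells, Col15a1 5.84 and 1.76 CPM, and Lamb3 6.46 and 0.303 CPM. Col6a3 was 2.12 and 1.42 CPM. Microglia-like cells held Col27a1 at 62.1 CPM (59.6 to 64.7), with a UMI in 33.4% of cells and 7.98% after thinning, Col15a1 at 7.46 CPM (6.61 to 8.39) and Col6a3 at 3.21 CPM. Col27a1 made fibrillar collagens 72.0% of the collagen and laminin UMIs of that class. It was 72.7 CPM in a cluster of 1797 microglia-like cells and 181 CPM (157 to 208) in one of 755 cells with a median of 1344 UMIs. Col27a1 was 56.6 CPM (39.6 to 78.3) in neutrophil-like, 26.6 CPM (22.8 to 30.9) in monocyte-like and 11.7 CPM (6.84 to 18.8) in dendritic-like cells, and had 2 UMIs in B-like cells. Col15a1 was 17.3 CPM from 11 UMIs in neutrophil-like cells. The 10 microglia marker genes summed to 14092 CPM in microglia-like, 11054 CPM in neutrophil-like and 5966 CPM in monocyte-like cells. Their part in the neutrophil-like and monocyte-like levels was not tested.

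Lamb3, the beta chain of the laminin of epithelial anchoring, was read mainly in NK-like and T-like cells. NK-like cells had 51.7 CPM (39.9 to 65.9) and T-like cells 26.7 CPM (24.04 to 29.7), with a UMI in 20.1% and 11.8% of cells and 3.08% and 2.72% after thinning. In microglia-like cells of the same library it was 0.348 CPM from 13 UMIs, and group 2 innate lymphoid-like cells had none. Lama3, the alpha chain it is known to assemble with, had no UMI in any kept CD45-positive cell. The annotated Lamb3 gene overlaps 4930570N18Rik on the same strand and G0s2 and Hsd11b1 on the other, so some reads may belong to an overlapping gene, and this was not tested. Lamc1 was 12.6 CPM in T-like cells, and group 2 innate lymphoid-like cells had Lama5 at 10.9 CPM (6.25 to 17.8) from 16 UMIs. Col10a1, led by NK-like cells, had 1 UMI there, and no class had more than 0.795 CPM.

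The genes that work with collagens and laminins were read in the same classes, from 4 lists. Of 12 basement membrane partners, endothelial-like cells led 6 (5.28% of all genes), pericyte-like cells 2 (3.73%), smooth muscle-like cells 2 (7.09%), and the fibroblast-like and ependymal-like classes 1 each (7% and 11.6%). Sparc, a collagen-binding glycoprotein, was 2387 CPM (2350 to 2425) in endothelial-like cells, and Fn1, fibronectin, 1483 CPM (1454 to 1513). Fn1 and Egfl7 were among the class markers. Nid1, nidogen, which links the laminin and type IV networks, was led by pericyte-like cells at 617 CPM (594 to 640), as Lamc1 was. Of 13 interstitial matrix partners, fibroblast-like cells led 10 (7% of all genes), including the class markers Dcn, Lum and Fbln1. Dcn was 5127 CPM (4922 to 5337) and Bgn, biglycan, 631 CPM (561 to 708) with 584 CPM in pericyte-like cells. Collagen folding and processing was spread more widely. Of 26 measured genes of 27, fibroblast-like cells led 7 (7% of all genes), inflamed stromal cells 5 (4.37%), microglia-like cells 5 (4.77%), ependymal-like cells 3 (11.6%), endothelial-like cells 2 (5.28%) and 4 classes 1 each. Ppib, a prolyl isomerase, was led by B-like cells at 966 CPM and P4hb, a prolyl hydroxylase subunit, by microglia-like cells at 416 CPM. Serpinh1, the collagen chaperone, was led by inflamed stromal cells at 549 CPM (488 to 615). Of 20 measured receptors of 21, smooth muscle-like cells led 5 (7.09% of all genes), endothelial-like cells 3 (5.28%), fibroblast-like cells 3 (7%), astrocyte-like cells 2 (9.69%), ependymal-like cells 2 (11.6%) and 5 classes 1 each. Sdc4, a syndecan, was 1019 CPM (1007 to 1030) in astrocyte-like cells and Itgb1, the common beta 1 integrin chain, 1044 CPM (951 to 1143) in smooth muscle-like cells.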

How the data were processed

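Single-cell 3′ RNA-seq counts were analysed for a CD45-negative and a CD45-positive brain library. The deposited values are UMI counts per gene and barcode, made by the authors with Cell Ranger 6.1.2 on mm10, per the submitters' processing notes. The sort itself is not described in the sources used here. Cells had at least 500 UMIs and 200 genes and at most 20% mitochondrial UMIs, and Scrublet (in scanpy 1.11.5) marked 876 and 177 doublets, which were left out. Clusters (Leiden, 2000 variable genes without collagens and laminins, 30 components, resolution 1, then 0.5) were named from 23 marker lists where at least 3 markers were found in at least 20% of cells, and unnamed where markers of another class led. That naming rule, the inflamed stromal class and the stress oligodendrocyte comparison were set after the clusters were seen. A pericyte-like cluster of 198 cells with interferon-induced genes was kept in its class.

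UMIs were summed per class and scaled to CPM, with exact Poisson intervals for levels, exact binomial intervals for shares, and exact conditional intervals for ratios, all at 95%. For ratios a gene needed at least 20 UMIs over both sides, and a call was a 2-fold difference. Cells were thinned to 1000 UMIs for depth-matched shares. A count of 0 was given a floor of 3 UMIs. TMM factors came from edgeR 4.0.16 as an alternative scaling. The code was tested on simulated data. The collagens, laminins and all lists were chosen with earlier results of these data known. The genes named are every collagen and laminin gene with its leading class, in full those with at least 500 UMIs or among the top 3 of a class, and the 2 genes with the most UMIs in each list of matrix partners. Promoter windows came from a RefSeq table that held 36 of the 51 genes. By exception to the naming rule, 1 laminin gene, included in the counts and sums, is not reported here.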

Additional observations from a re-analysis of the deposited data

How the results depend on the processing

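No paired analysis was possible because each group was 1 library and no replicate could be left out. Summed levels moved by more than their counting interval under several settings. The endothelial-like level of 2224 CPM was 2044 with doublets kept and 2084 as a mean over cells. The pericyte-like level of 3725 CPM was 3338 with doublets kept, 3608 as a mean over cells, 3667 after thinning and 3667 with the inflamed stromal cells included. The fibroblast-like level of 6574 CPM was 6333 with stricter cell filters, 6920 with collagens and laminins used in clustering, 9682 as a mean over cells and 7224 without the smaller cluster. Genes led by pericyte-like cells were 10 at resolution 0.5, 8 at resolution 2, 3 with doublets kept, 10 with stricter filters and 8 with collagens and laminins in clustering, against 5. Those led by smooth muscle-like cells were 3 at resolution 2, and those led by ependymal-like cells 1 where genes needed 100 UMIs. The smooth muscle-like class was not separated at resolution 0.5, with stricter filters or with the genes in clustering. Of 51 genes, 24 kept their leading class under all 7 alternatives, as did 11 of the 23 with at least 500 UMIs. Lama2, Lama5 and Lamc3, led by smooth muscle-like cells, kept it under 2, 2 and 3, and were otherwise led by pericyte-like, endothelial-like and pericyte-like cells. The median log2 library ratio of -6.03 was -5.56 with TMM, -5.51 with median-of-ratios scaling, -6.31 for genes with at least 100 UMIs and -5.52 over all barcodes. At 4-fold in place of 2-fold, higher and lower counts were 2 higher for smooth muscle-like against pericyte-like, 2 lower for fibroblast-like against pericyte-like, 0 lower for venous and 0 lower for arterial cells, 3 higher and 2 lower for reactive astrocyte-like cells, 2 higher and 1 lower for the stress cluster, and 0 higher and 8 lower for inflamed stromal cells. With at least 50 UMIs they were 1 lower for pericyte-like against endothelial-like, 1 higher for arterial and 3 higher for reactive astrocyte-like cells. With doublets kept they were 8 lower for smooth muscle-like, 0 lower for venous and 5 lower for the stress cluster. The shares of all genes at these settings are not given here, so the counts show only how the calls moved. Col4a1 per Col4a2 went from 1.26 to 1.20 in endothelial-like and from 2.24 to 2.47 in pericyte-like cells after thinning. Reactive cells were also compared with only the 4 astrocyte-like clusters led by Gm37107 (2118 cells, chosen after seeing the data). These included the cluster led by Gm4710 and Neat1. There the log2 ratios of reactive cells turned positive for Col9a2 (0.62) and Lamb1 (0.038). The causes were not tested.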

Other observations

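Most of the kept Col2a1 and Col10a1 UMIs of the CD45-negative library were in a few barcodes outside the classes described above. In 8 of 12817 kept cells, collagen and laminin genes made up at least 5% of the UMIs. Of these, 1 was fibroblast-like and 7 lay in clusters named microglia-like, although the 7 had no UMI of Ptprc, Cx3cr1 or C1qa. In 5 of the 7, with at least 2 Col2a1 UMIs and 523 to 681 UMIs in all, the share was 7.20% to 19.1%. In the other two, with at least 2 Col1a1 UMIs and 604 and 704 UMIs in all, it was 18.04% and 20.7%. Over the 7 cells there were 155 Col2a1 UMIs, 56.4% of the library's kept Col2a1, and 60 Col10a1 UMIs in 3 cells, 80.0% of its kept Col10a1. The shares were lower for Col9a1 (25%), Col1a1 (11.3%), Col9a2 (5.31%), Col11a1 (5.28%), Col1a2 (4.40%), Col11a2 (1.68%) and Col9a3 (0.740%). They also held 13 UMIs of Acan, 32 of Comp and 41 of Snorc, genes known from cartilage, each in 5 cells, and 185 UMIs of Bglap, a gene known from osteoblasts. These genes were chosen after their values were seen, and the source of these barcodes was not tested.

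Barcodes left out of the classes also carried these transcripts. The summed level was 810 CPM (791 to 828) in CD45-negative barcodes marked as doublets, 393 CPM in those that failed the cell filters and 211 CPM in 76 unnamed cells. In the CD45-positive library it was 89.7 CPM in doublets and 86.4 CPM in 619 unnamed cells. In that library 15 endothelial-like cells held 120 collagen and laminin UMIs, 2.05% of its total.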
